A study of Mus musculus with 20 samples.

Results

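The Hoxc and Hoxd clusters were studied as 2 intervals of the mouse genome in build mm9, chr15:102745001-102875000 for Hoxc and chr2:74490001-74610000 for Hoxd, which are 130 and 120 kb long. Members were all CpG cytosines there, of either strand, that were covered by at least 10 reads in at least 4 of the 5 libraries of each of 4 groups. This gave 2667 of the 1730534 autosomal cytosines that met the same coverage rule, 1038 in Hoxc and 1629 in Hoxd, at 781 and 1289 CpG sites. They were taken singly and in fixed 1 kb windows. Of 131 windows with a member, 108 held at least 3 member cytosines and were tested, 52 in Hoxc and 56 in Hoxd, among 127276 such windows on all autosomes. The other 23 windows held 1 or 2 cytosines, which were tested only singly.

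Methylation was read by enhanced reduced representation bisulfite sequencing (ERRBS), in which bisulfite turns unmethylated cytosines into bases read as T while methylated ones are still read as C. The methylation level of a cytosine or window is the percent of its C and T reads that are C. The cells were promyelocytes, the granulocyte precursors that accumulate in acute promyelocytic leukemia. The 4 groups of 5 libraries were early promyelocytes that display the progenitor antigen CD34 (CD34+) and late ones that have lost it (CD34-), each from control mice labelled wild type (WT) and from mice transgenic for PML-RARα, the fusion of PML with the retinoic acid receptor alpha that drives this leukemia. All mice were of the FVB/n background. The age of the mice, the promoter of the transgene and the number of mice per library are not given in the sources used here. Whether replicate libraries stem from different animals is not stated either, so p-values measure the spread between these libraries, which may be technical. Consecutive library numbers (1 and 2, 3 and 4, up to 19 and 20) are a CD34+ and a CD34- library of like genotype, but the labels do not say that they share a mouse, and groups were compared without pairing. Libraries are named below by the number in their label, and levels of groups are means ± SD of 5 libraries unless another n is given. The files hold no expression values, so the identity of the sorted cells was taken from the labels.

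Hox genes encode homeodomain transcription factors that set position along the body axis, and they lie in 4 clusters in which gene order follows the order of expression in the embryo. Hoxa and Hoxb genes are the ones best known in blood progenitors. The clusters are rich in CpG and, where silent, are held by Polycomb complexes, and DNA methylation of their CpG-rich parts is usually low in normal tissue. Retinoic acid is a classical inducer of Hox genes through its receptors.

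Read coverage, totalled over all listed cytosines, lay between 83631324 and 362881291 per library. The median coverage of a member cytosine, over libraries that covered it, was 92.5 reads in Hoxc and 88 in Hoxd, and 767 and 1047 of the members were covered in all 20 libraries. The libraries lay on 4 flowcells, lettered A to D here. Those of WT CD34+ and of WT CD34- lay on A, B and D, those of PML-RARα CD34+ on B, C and D and those of PML-RARα CD34- on A and B. The PML-RARα groups thus shared only flowcell B, and fraction and flowcell are partly confounded there.

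The files name no genes. To tie members to genes, RefSeq promoter sequences, which run from 250 bases before to 50 bases after a gene's start, were matched to the measured positions by the spacing of their CpG dinucleotides alone. A promoter was placed where all CpGs listed in the files over its span fell on CpGs of the sequence, at least 6 of them, with no equally good fit elsewhere on the chromosome. Of 10 listed genes of the Hoxd interval with a promoter sequence, 7 were placed: Hoxd13, Hoxd12, Hoxd11, Hoxd10, Hoxd9, Hoxd3 and Hoxd1. With both promoters of the noncoding gene Gm38462, placed after the first ones had been seen, the distances between the 9 placed promoters differed by 0 bp from those between the same RefSeq entries. Evx2, Hoxd8, Hoxd4 and, in the Hoxc interval, Hoxc4 were not placed, and of the noncoding genes of Hoxc added later Gm29905 was. Members are therefore given by mm9 position in Hoxc and by position and nearest placed promoter in Hoxd. Exons, introns and UTRs were not analysed here.

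The promoters with the highest methylation level (Hoxd12 and Hoxd10) and the Hox promoter with the most member cytosines (Hoxd1) are printed from RefSeq, 250 bases before the start of the gene, 5′ to 3′. CpGs with a member cytosine are in capitals. Positions of these sequences are in GRCm38.p6, the build of the RefSeq table, whereas all other positions given are in mm9, the build of the methylation files.
Hoxd12 (GRCm38.p6 chr2:74674763-74675012, strand +): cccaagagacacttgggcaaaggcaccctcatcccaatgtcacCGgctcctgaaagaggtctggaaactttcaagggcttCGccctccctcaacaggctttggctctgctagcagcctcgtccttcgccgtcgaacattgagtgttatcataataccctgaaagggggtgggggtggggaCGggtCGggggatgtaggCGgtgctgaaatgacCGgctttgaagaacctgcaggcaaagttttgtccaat
Hoxd10 (GRCm38.p6 chr2:74691641-74691890, strand +): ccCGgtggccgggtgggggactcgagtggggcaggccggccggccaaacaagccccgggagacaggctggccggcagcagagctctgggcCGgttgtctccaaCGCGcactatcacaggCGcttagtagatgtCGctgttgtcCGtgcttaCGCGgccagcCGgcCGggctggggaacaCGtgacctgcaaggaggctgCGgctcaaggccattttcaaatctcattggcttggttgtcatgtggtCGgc
Hoxd1 (GRCm38.p6 chr2:74762730-74762979, strand +): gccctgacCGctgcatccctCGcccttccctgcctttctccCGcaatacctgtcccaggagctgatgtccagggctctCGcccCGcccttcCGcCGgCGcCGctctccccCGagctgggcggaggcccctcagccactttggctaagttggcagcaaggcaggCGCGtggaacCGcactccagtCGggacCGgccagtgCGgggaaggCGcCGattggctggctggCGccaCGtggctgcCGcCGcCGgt

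Reduced representation libraries start at the MspI site CCGG, and all 7 Hoxd promoters held it, from 1 time in Hoxd3 to 10 times in Hoxd10. Among all 32851 RefSeq promoters of the same 300 bases, 52.8% held CCGG. The 7 were placed only because these libraries listed enough of their CpGs, and this choice favours promoters with CCGG. The shares therefore cannot show whether Hoxd promoters hold CCGG more often than others. The retinoid receptor half-site AGGTCA, searched on both strands, was found 1 time in Hoxd3 and 1 time in Hoxd10 and is held by 16.3% of all promoters. The match in Hoxd10 is printed above as its reverse complement, tgacct. A match is a description of the letters and not of a bound site.

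Both clusters were lowly methylated. The median level of a 1 kb window, averaged over the 20 libraries, was 5.81% in Hoxc (1.08 to 49.2%) and 4.36% in Hoxd (0.0973 to 80.8%), whereas the median over the other 127168 autosomal windows was 87.3%. Of the Hoxc windows 48 of 52 lay between 1 and 20%, of the Hoxd windows 44 of 56. Above 80% lay 0 Hoxc windows, 1 Hoxd window and 58.3% of all other windows. Windows with more cytosines had lower levels in both clusters, with a Spearman rho across windows of -0.40 in Hoxc and -0.34 in Hoxd, where all other windows had -0.43. These windows share their libraries, and the correlation is a description.

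**Figure D1:**
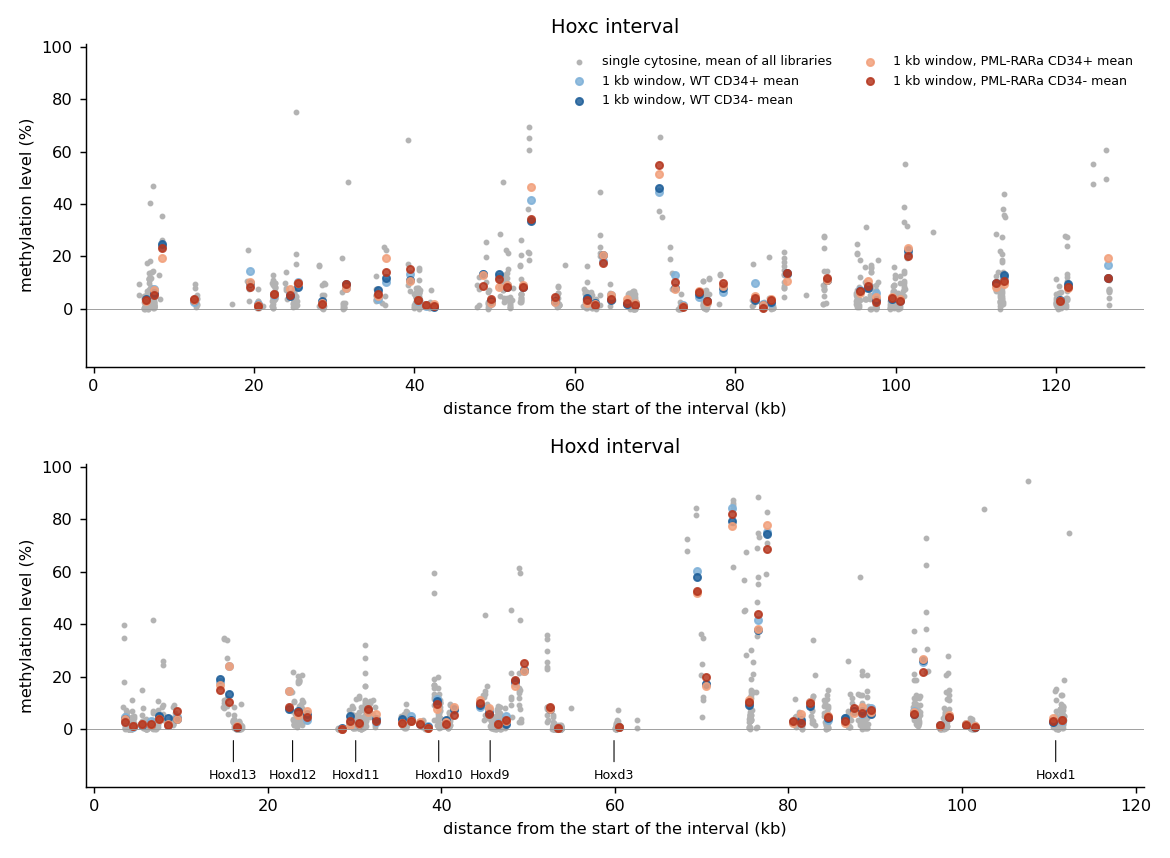
Methylation level (vertical axes, percent) along the Hoxc and Hoxd intervals (horizontal axes, kb from the start of each interval). Grey points are single member cytosines averaged over the 20 libraries, coloured points are the means of 1 kb windows in each of the 4 groups, and gene names mark the 7 placed promoters. Most points lie below 20%, the 4 group means of a window lie close together, and the highest Hoxd windows lie between the placed promoters of Hoxd3 and Hoxd1.

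The CpG-dense windows of the clusters were not as empty of methylation as dense windows usually were. With at least 20 member cytosines, 17 Hoxc windows had a median level of 3.37% and 27 Hoxd windows one of 3.15%, and the median of the other 17701 such windows was 0.283%. A level below 1% was measured in 0 of 17 Hoxc windows, in 4 of 27 Hoxd windows (14.8%) and in 65.0% of the others. The order was the same in each library: the median of the dense windows ranged over libraries from 2.96 to 4.40% in Hoxc and from 2.13 to 3.65% in Hoxd, and from 0.193 to 0.305% elsewhere, so that both clusters lay above the rest in 20 of 20 libraries. Among dense windows under 20% only, the medians of the clusters stood at the 87.2 and 86.4 percentiles of the 16032 other windows. In the 100 kb on each side of Hoxc, 3 dense windows, all on the side after it, had a median of 4.48% (1.56 to 15.5%), with 0 below 1%. On the sides of Hoxd, 3 dense windows had a median of 0.123% (0.115 to 0.130%). For Hoxc the higher level was thus not particular to the cluster on the side after it, as far as 3 windows show. No test was made of these differences between regions, whose libraries are the same.

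**Figure D2:**
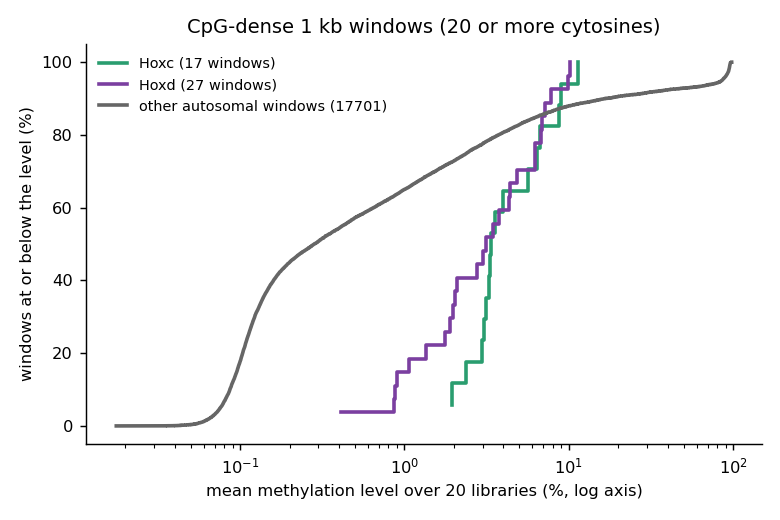
Cumulative share of CpG-dense 1 kb windows (vertical axis, percent of windows) at or below a mean methylation level (horizontal axis, percent, log scale) for Hoxc (17 windows), Hoxd (27) and all other autosomal windows (17701). Hoxc and Hoxd rise mostly between 1 and 10%, while most other dense windows lie below 1%.

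The windows with the most cytosines show the same range. In Hoxc, chr15:102812001-102813000 with 92 cytosines had 2.11% ± 0.328 in WT CD34+, 1.93% ± 0.0697 in WT CD34-, 2.10% ± 0.801 in PML-RARα CD34+ and 1.64% ± 0.506 in PML-RARα CD34- cells. The window chr15:102751001-102752000 with 74 cytosines had 3.37% on average. In Hoxd, chr2:74520001-74521000 held the Hoxd11 promoter among its 126 cytosines and had 2.08%, and chr2:74543001-74544000 with 127 cytosines, which holds a promoter of Gm38462, had 0.411%. Of the 4 dense Hoxd windows below 1%, this one, chr2:74550001-74551000 (0.861%) and chr2:74506001-74507000 (0.873%) held placed promoters, the latter 2 those of Hoxd3 and Hoxd13, and chr2:74591001-74592000 (0.896%) held none.

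The highest levels of Hoxd stood together in the long stretch between the placed promoters of Hoxd3 and Hoxd1. Promoters that were not placed, such as that of Hoxd4, may lie in this stretch. The window chr2:74563001-74564000, which begins 12.9 kb past the last placed CpG of Hoxd3 and ends 36.8 kb before the first of Hoxd1, had the highest level of all members, 80.8%. Its levels were 88.4, 81.7, 86.8, 80.3 and 84.0% in WT CD34+ libraries 1, 7, 9, 15 and 17 and 84.3, 78.5, 73.8, 83.2 and 77.6% in WT CD34- libraries 2, 8, 10, 16 and 18. They were 80.3, 68.6, 71.1, 87.8 and 78.9% in PML-RARα CD34+ libraries 3, 5, 11, 13 and 19 and 81.2, 80.1, 86.6, 82.9 and 79.9% in PML-RARα CD34- libraries 4, 6, 12, 14 and 20. All 20 libraries were high and the 4 groups overlapped.

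Around it lay chr2:74567001-74568000 with 74.0%, chr2:74559001-74560000 with 55.8% and chr2:74566001-74567000 with 40.3%, each with 3 to 11 cytosines. Between them the denser window chr2:74565001-74566000, with 44 cytosines, had 10.2%. In Hoxc the highest windows were chr15:102815001-102816000, where 3 cytosines gave 49.2% (20.0 to 71.3% over libraries), and chr15:102799001-102800000, where 7 gave 39.0% (23.4 to 57.7%). Both rest on few cytosines, with a median coverage of 269 and 471 reads summed over them. In all, 26 windows of both clusters had a mean level between 10 and 90%, 14 of them in Hoxc.

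A small number of cytosines carried much of the methylation. A mean level of at least 20% was measured at 61 Hoxc cytosines, 5.88% of its members, which made up 34.2% of the summed levels of the cluster. In Hoxd 87 cytosines, 5.34% of its members, made up 44.7%. They were spread over 26 and 33 windows. Of the remainder, 202 Hoxc and 562 Hoxd cytosines lay below 1%, and 10 and 37 were unmethylated in every library that covered them. Of the high ones, 9 in Hoxc and 26 in Hoxd were above 20% in every library that covered them. The highest was the Hoxd cytosine at position 74597577 of the reverse strand, with 94.6% on average and 80.5 to 100% over libraries, and in Hoxc the one at position 102770192 of the reverse strand, with 75.2% and 47.5 to 95.5%. High cytosines also scattered most. The median SD over libraries was 16.0 points in Hoxc and 14.5 in Hoxd for those at 20% or more. For the others it was 3.60 and 2.68 points.

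The strands of a CpG are read from different fragments, and where both were measured they gave like levels. Over 257 Hoxc and 340 Hoxd CpGs with a member on each strand, the median absolute difference between strands was 0.811 and 0.543 points, with a Pearson r across CpGs of 0.95 in either cluster, given as a description since the CpGs share libraries. At the Hoxd CpG at 74563616, for example, the forward strand had 87.2% and the reverse strand 86.1%, and at the Hoxc CpG at 102799328 they had 69.3 and 65.1%. The strands differed by more than 20 points at 0 Hoxc CpGs and at 1 Hoxd CpG. There the forward cytosine at 74566335 had 0.729% (0 to 4.55% over libraries) and the reverse one at 74566336 had 35.7% (12.5 to 82.8%), both in 20 libraries. The reads of this one CpG were not examined further, and a cause was not tested.

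Promoter levels of the Hoxd genes were computed from the summed reads of their member cytosines. Hoxd genes are numbered from the end expressed earliest and most anterior in the embryo, Hoxd1, to the end expressed last, Hoxd13, and the level did not follow this order: it was 1.68% at Hoxd1, 0.732% at Hoxd3, 2.62% at Hoxd9, 4.73% at Hoxd10, 1.79% at the Hoxd11 promoter that was placed, 5.86% at Hoxd12 and 1.80% at Hoxd13. The promoters of Gm38462 had 0.909 and 0.535%. The Hoxd3 level rests on cytosines past the start alone, most of which also count for the first of these promoters. In Hoxc, the 3 member cytosines of the Gm29905 promoter had 1.87%, with a median of 144 reads per library. Promoters next to each other in the order of levels overlapped in their ranges over libraries.

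Hoxd12, a posterior gene of the cluster, had the highest promoter level. Its libraries gave 10.5, 7.10, 2.96, 5.32 and 8.58% in WT CD34+, 2.34, 5.48, 3.89, 6.00 and 6.94% in WT CD34-, 8.28, 4.80, 4.59, 7.48 and 7.42% in PML-RARα CD34+ and 6.85, 2.07, 1.54, 6.75 and 8.27% in PML-RARα CD34- cells. The 4 groups overlapped throughout. Its level was carried by 4 of its 11 cytosines at 5% or more, the highest of which, 170 bases before the start on the forward strand, had 21.7% and ranged from 0 to 69.6% over libraries. In the sequence printed above it is the CpG in the run cttCGccc.

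At Hoxd10, 7 of 18 cytosines had 5% or more, all at adjoining CpGs from 147 to 117 bases before the start. The CpGs at 147 and 145 bases, the run caaCGCGcac in the sequence, had 10.1 and 9.86% on the forward and reverse strands of the first and 8.32 and 11.1% on those of the second. The promoter level was 2.60, 5.12, 4.34, 4.42 and 5.56% in WT CD34+ and 12.4, 7.70, 5.74, 4.42 and 6.38% in WT CD34- libraries. It was 4.15, 2.58, 0.350, 4.04 and 4.93% in PML-RARα CD34+ and 5.54, 2.75, 2.56, 5.29 and 3.70% in PML-RARα CD34- libraries. The WT CD34- mean of 7.33% ± 3.07 was the highest of the 4, and its libraries overlapped with those of each other group. The window that holds this promoter, chr2:74529001-74530000, had 9.88% on average.

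At Hoxd1, 18 of 38 cytosines lay below 1% and 3 at 5% or more. Libraries ranged from 0.440 to 5.53%, and the highest, PML-RARα CD34+ library 5, stood above the next at 2.51%. At its cytosines 242 and 230 bases before the start, the first CpGs in capitals of the sequence, the level reached 87.5 and 87.9% in the highest library while the means were 11.2 and 15.2%. At Hoxd3, which had the lowest level among the Hox genes, 9 of 12 cytosines lay below 1% and the highest had 2.29%. All 12 lay from 8 to 47 bases past the start, and the 250 bases before it held no member cytosine. Its level is therefore not one of the same stretch as at Hoxd10 or Hoxd12. Over libraries, Hoxd11 ranged from 0 to 2.70% and Hoxd13 from 0.478 to 3.84%.

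Hoxd9 was the one promoter at which groups of a comparison did not overlap. Its WT CD34+ libraries had 2.36, 1.94, 2.07, 1.63 and 2.82% and its WT CD34- libraries 3.08, 3.32, 3.27, 3.97 and 2.97%, a difference of 1.16 points (2.16% ± 0.45 against 3.32% ± 0.392). PML-RARα CD34+ libraries had 3.29, 1.26, 1.46, 4.12 and 3.98% and PML-RARα CD34- libraries 1.06, 2.20, 3.00, 2.57 and 2.10%, which overlapped. Over the 7 promoters and 4 comparisons of groups, 1 of 28 did not overlap. Among windows covered in all 20 libraries, 2.12% of 114462 genome-wide and 0 of 106 members did not overlap in WT maturation. Promoters were not tested singly, and the Hoxd9 values are a description.

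**Figure D3:**
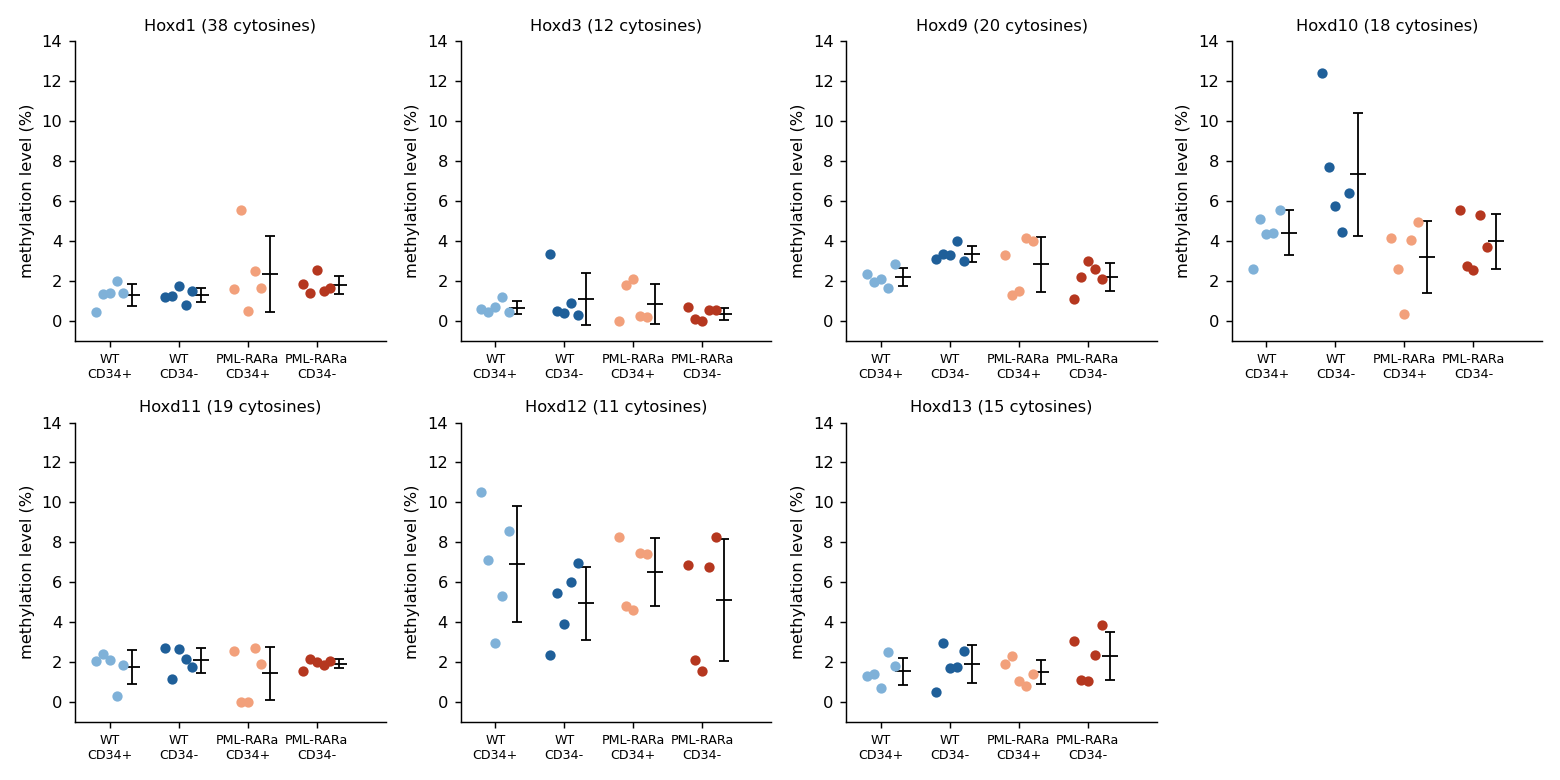
Methylation level (vertical axes, percent) of the 7 placed Hoxd promoters in each library of the 4 groups (horizontal axes). Points are libraries, and the black marks are the group mean with its SD (n = 5). Hoxd10 and Hoxd12 lie highest, and of the groups compared only WT CD34+ and WT CD34- at Hoxd9 do not overlap.

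Averaged over a cluster, the groups lay within 1 point of each other. The mean level over member cytosines covered in all 20 libraries, each weighted equally, was 6.27% ± 0.203 in WT CD34+, 5.94% ± 0.543 in WT CD34-, 5.86% ± 0.218 in PML-RARα CD34+ and 5.84% ± 0.299 in PML-RARα CD34- cells for Hoxc. For Hoxd it was 5.73% ± 0.269, 5.72% ± 0.140, 5.59% ± 0.160 and 5.73% ± 0.0993. In Hoxc the WT CD34+ libraries gave 5.99, 6.11, 6.42, 6.36 and 6.45% and the PML-RARα CD34+ ones 6.02, 5.50, 5.96, 5.80 and 6.01%. This is the largest difference between genotypes, -0.41 points, and the groups overlapped by library 1 of WT and libraries 3 and 19 of PML-RARα. Within flowcells B and D the difference was -0.29 and -0.59 points, and with a coverage minimum of 20 reads it was -0.0950 points. Groups overlapped in all 4 comparisons of both clusters. A level is a share of reads, so methylation in fewer cells and on fewer alleles per cell cannot be told apart.

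**Figure D4:**
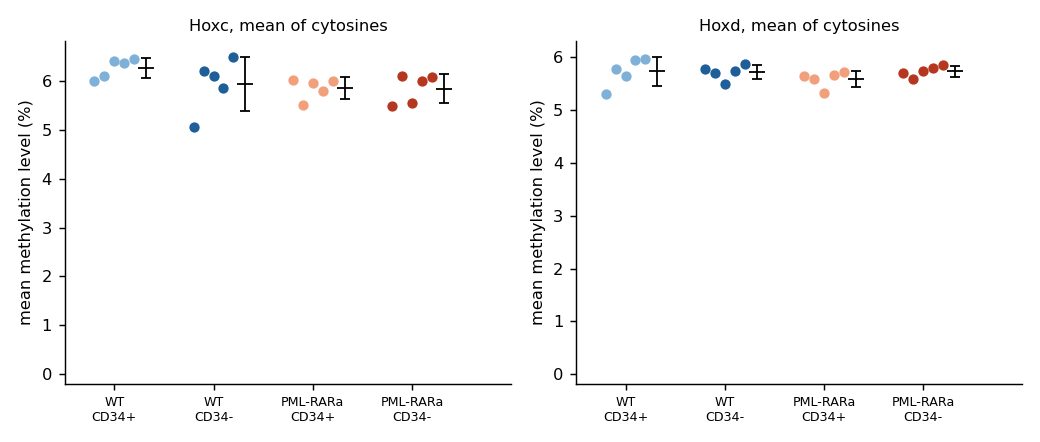
Mean methylation level (vertical axes, percent) of the cytosines of Hoxc and Hoxd that all 20 libraries covered, by library (points) and group (horizontal axes), with the group mean and SD (n = 5) in black. All libraries lie between 5.06 and 6.49% in Hoxc and between 5.31 and 5.97% in Hoxd.

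The first question of the design is how PML-RARα cells differ from WT cells. In CD34+ cells, 0 of 108 member windows passed the rule used for a call, which asked for an adjusted p below 0.05 (quasi-binomial logistic model, Benjamini-Hochberg over all 127276 windows) together with group means at least 10 points apart. The rule called 4 windows genome-wide, 0.00314% of those tested. Of single cytosines 0 of 2667 were called, with 5.78e-05% called genome-wide. Counts of 0 are what such backgrounds give for 108 windows or 2667 cytosines, and they say nothing particular about the clusters. The mean level was below 10% in 38 of 52 Hoxc and 44 of 56 Hoxd windows. Such windows had little room for a loss of 10 points, in this and the other comparisons. Limma on log2 ratios of methylated to unmethylated reads also called 0 members in each of the 5 comparisons. An unadjusted p below 0.05 was reached by 2 windows, 1.85%, with 4.19% genome-wide, and by 180 cytosines, 6.75%, with 5.34% genome-wide. Window differences ranged from -8.33 to 9.40 points and lay within 5 points at 102 of 108 windows, with 85.1% within 5 points elsewhere. Windows were not matched by level, and most members lay near 0%, where levels have little room to differ.

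The smallest p belonged to chr15:102785001-102786000, a dense Hoxc window of 68 cytosines. It had 3.97, 2.74, 2.73, 3.18 and 2.49% in WT CD34+ and 3.07, 1.84, 4.38, 3.99 and 3.92% in PML-RARα CD34+ libraries. The groups overlapped, and the difference of 0.42 points had a p of 0.0282 and an adjusted p of 1.00 in the quasi-binomial test. Of lower windows, chr15:102827001-102828000 had the smallest p, 0.0759 in the same test, with 9.80% ± 4.34 in WT and 5.06% ± 3.30 in PML-RARα cells. Of single cytosines, position 102811923 of the reverse strand in Hoxc had the smallest p. It was at 0% in each WT CD34+ library and had 0, 8.25, 22.7, 3.20 and 0% in the PML-RARα CD34+ libraries, so that the groups shared the value 0. The difference of 6.83 points had a p of 0.000202 and an adjusted p of 0.653 in the quasi-binomial test. In this test the spread between libraries is taken from all 4 groups together. At this cytosine, groups at 0% in every library add no spread, so the p may be too small. All CD34- libraries of both genotypes were at 0% there.

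In CD34- cells 0 of 108 windows and 0 of 2667 cytosines were called, with 0.000786% and 5.78e-05% called genome-wide. An unadjusted p below 0.05 was reached by 5 windows, 4.63%, with 7.79% genome-wide, and by 317 cytosines, 11.9%, with 8.44% genome-wide. Cytosines of a fragment share reads, and these shares were not tested against each other. Window differences ranged from -5.54 to 8.86 points. The smallest p belonged to the Hoxd window chr2:74530001-74531000, which begins just past the Hoxd10 promoter and holds 27 cytosines. Its levels were 4.10, 3.31, 2.79, 3.48 and 2.86% in WT CD34- and 1.95, 1.43, 1.94, 2.43 and 2.62% in PML-RARα CD34- libraries. The groups did not overlap, and the difference of -1.23 points had a p of 0.00894 and an adjusted p of 0.517 in the quasi-binomial test. Among windows covered in all 20 libraries, 0.901% of 114462 genome-wide and 1 of 106 members did not overlap in this comparison. A member without overlap is thus what the genome-wide share gives.

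At single cytosines, the smallest p of this comparison belonged to position 102781292 of the forward strand in Hoxc. It was methylated in each WT CD34- library, with 5.60, 5.28, 6.49, 2.54 and 6.06%, and at 0% in each PML-RARα CD34- library. WT CD34+ libraries had 0, 2.56, 1.52, 0 and 0%, and PML-RARα CD34+ libraries had 0.905% in library 3 and 0% in the other 4. The CD34- groups did not overlap, but the cytosine was picked by its p, and the share of all cytosines without overlap was not counted. The difference of -5.20 points had a p of 9.74e-07 and an adjusted p of 0.114 in the quasi-binomial test over all 1730534 cytosines. The PML-RARα CD34- group, at 0% in every library, adds no spread to the test, so this p may be too small. Coverage there was 66 reads or more, with a median of 188. The same cytosine also had the smallest p of WT maturation.

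A larger difference was measured at position 74493387 of the forward strand in Hoxd, 12.7 kb before the first placed CpG of Hoxd13. It was singled out after its values were seen, as the cytosine with the smallest p among the 109 members that differed by 10 points or more. WT CD34- libraries had 45.6, 56.8, 47.7, 66.7 and 63.6% and PML-RARα CD34- libraries had 21.5, 20.0, 8.94, 26.7 and 17.6%. The CD34- groups did not overlap, and here too the share of all cytosines without overlap was not counted. The difference of -37.1 points had a p of 2.34e-05 and an adjusted p of 0.213 in the quasi-binomial test. WT CD34+ cells had 38.5% ± 11.6 and PML-RARα CD34+ cells 44.7% ± 17.0, with a difference of 6.15 points (adjusted p = 1.00). The 4 other members within 100 bp differed from it and from each other. At 23 bases before it the CD34- means were 6.48% in WT and 23.9% in PML-RARα cells. At 14 bases after it they were 29.0 and 5.64%, at 23 bases 0.395 and 0%, and at 34 bases 37.1 and 38.8%. Their p was 0.467 to 0.668 in the quasi-binomial test.

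The second question is what changes as CD34+ cells mature to CD34- cells. In WT cells 0 of 108 member windows were called, with 0.427% called genome-wide, and 0 of 2667 cytosines, with 0.0429% called genome-wide. A share of 0.427% of 108 windows is less than 1 window, so that this count too is not a result about the clusters. An unadjusted p below 0.05 was reached by 3 windows, 2.78%, with 6.21% genome-wide, and by 193 cytosines, 7.24%, with 5.83% genome-wide. Window differences ranged from -10.7 to 3.25 points with a median of -0.01, and the median elsewhere was -0.38. The smallest p belonged to chr15:102827001-102828000, where 4 cytosines had 13.3, 6.08, 4.30, 11.5 and 13.9% in WT CD34+ and 3.12, 4.49, 4.23 and 1.92% in 4 WT CD34- libraries. WT CD34- library 2 did not cover it and was left out of the fit. The groups overlapped by a single pair of values, and the difference of -6.36 points had a p of 0.0146 and an adjusted p of 0.578 in the quasi-binomial test.

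At the Hoxc cytosine 102781292, WT maturation gave 4.38 points more in CD34- cells, with 0 to 2.56% in CD34+ and 2.54 to 6.49% in CD34- libraries, which overlapped by those 2 values alone. The p was 8.53e-05 and the adjusted p 0.101 in the quasi-binomial test, which shares its spread with the PML-RARα CD34- group at 0%. This p may therefore be too small as well. Without WT CD34+ library 7, the one at 2.56%, the adjusted p was 0.0331. The difference stayed under 10 points and the cytosine was not called.

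In PML-RARα cells 0 of 108 windows and 0 of 2667 cytosines were called, with 0.0558% and 0.00196% called genome-wide. An unadjusted p below 0.05 was reached by 5 windows, 4.63%, with 9.42% genome-wide, and by 328 cytosines, 12.3%, with 8.53% genome-wide. Window differences ranged from -13.7 to 5.76 points. The smallest p belonged to chr15:102784001-102785000, 8 Hoxc cytosines with 13.6, 7.34, 9.81, 12.5 and 9.81% in PML-RARα CD34+ and 12.2, 18.6, 15.5, 14.6 and 15.9% in PML-RARα CD34- libraries. The groups overlapped, with a difference of 4.75 points, a p of 0.0229 and an adjusted p of 0.446 in the quasi-binomial test. Of lower windows, chr15:102799001-102800000, one of the highest of Hoxc, had 46.5% ± 7.45 in CD34+ and 34.4% ± 3.27 in CD34- cells (p = 0.0247 and adjusted p = 0.453 in the quasi-binomial test). Its CD34+ libraries had 38.5, 42.3, 57.7, 49.8 and 44.2% and its CD34- libraries 32.1, 36.9, 32.4, 31.8 and 38.9%, so that only library 3 lay within the CD34- range. In WT cells this window had 41.5% ± 6.08 and 33.7% ± 7.43, and the difference between the genotypes, -4.25 points, had a p of 0.629 in the same test. These fits are unpaired. By consecutive library numbers, the CD34- library was lower in 5 of 5 pairs of each genotype. With a term per pair in that test, the adjusted p was 0.648 in WT and 0.322 in PML-RARα maturation. The labels do not say that such pairs share a mouse.

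The cytosine with the smallest p of PML-RARα maturation was position 74574348 of the reverse strand in Hoxd. It had 1.92, 8.70, 0, 2.59 and 6.80% in CD34+ libraries and 0% in 4 CD34- libraries and 0.211% in library 20. Library 11 of the CD34+ group lay at 0% like most CD34- ones. The difference of -3.96 points had a p of 0.000216 and an adjusted p of 0.198 in the quasi-binomial test. With a term per pair of consecutive library numbers in that test, the adjusted p was 0.0155. The difference stayed under 10 points and the cytosine was not called. The cytosine on the other strand had 0.964% in CD34+ and 2.68% in CD34- cells.

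The difference of maturation between genotypes was tested as an interaction, and 0 windows and 0 cytosines were called both among members and genome-wide, 0% of those tested. Among members 2 windows had an unadjusted p below 0.05, 1.85%, with 5.16% genome-wide, and 234 cytosines, 8.77%, with 5.53% genome-wide. The smallest p was that of chr15:102784001-102785000, where WT cells had 13.4% ± 1.83 in CD34+ and 11.0% ± 3.26 in CD34- and PML-RARα cells 10.6% ± 2.47 and 15.4% ± 2.31. The interaction of 7.10 points had a p of 0.0185 and an adjusted p of 0.964 in the quasi-binomial test. Of single cytosines, the smallest p was at position 102821259 of the reverse strand in Hoxc, with 0.321% (n = 4) in CD34+ and 4.76% in CD34- cells of WT and 2.95% (n = 4) and 0.365% in those of PML-RARα. Its interaction of -7.03 points had a p of 0.000337 and an adjusted p of 0.738 in the quasi-binomial test across all cytosines. At the Hoxd cytosine 74493387 the interaction was -43.3 points, with an adjusted p of 0.738. The comparisons share libraries, and their values are set side by side without a test of their likeness.

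**Figure D5:**
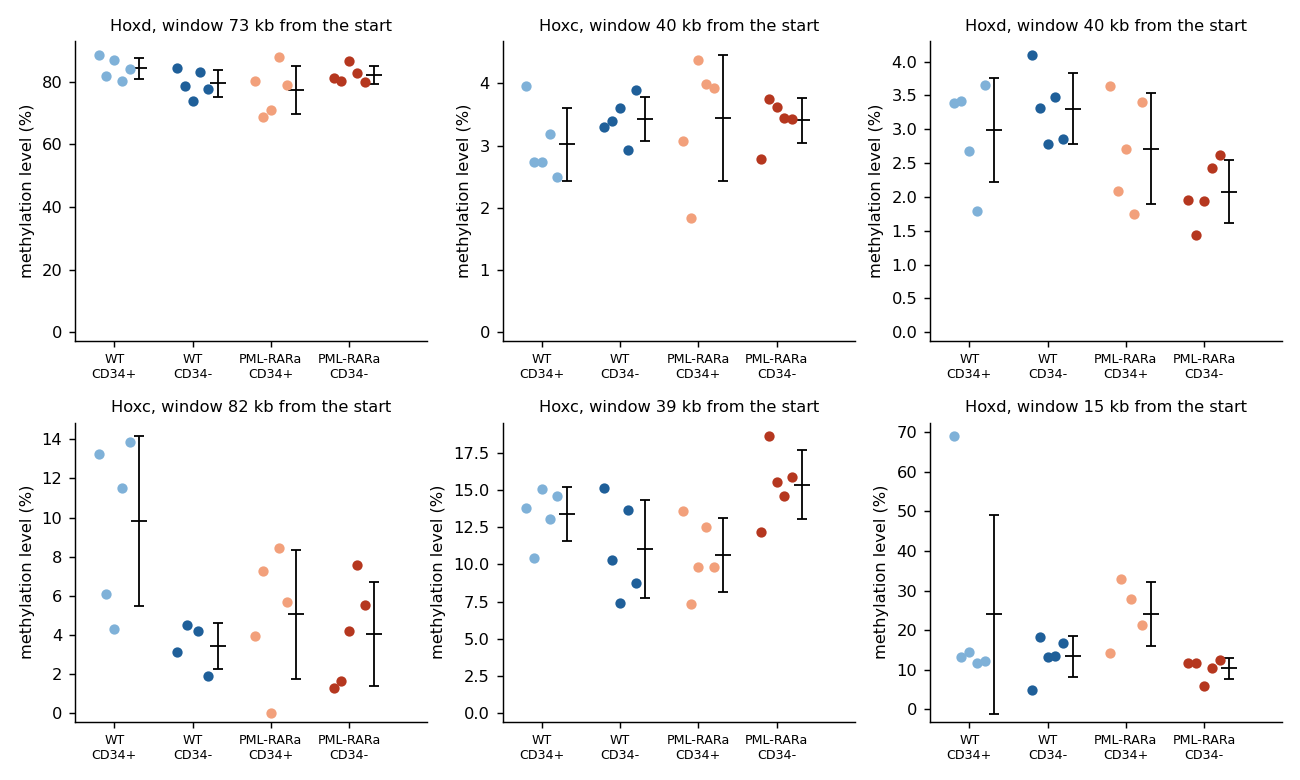
Methylation level (vertical axes, percent) by library (points) in each of the 4 groups (horizontal axes) for 6 windows, with the group mean and SD in black (n = 5, or 4 where 1 library did not cover the window). The windows are the highest of Hoxd (73 kb from the start of its interval), those with the smallest p in the 4 comparisons of groups (Hoxc 40, Hoxd 40, Hoxc 82 and Hoxc 39 kb) and a Hoxd window with a single library far above its group (15 kb).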

How the data were processed

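The 20 ERRBS libraries form 4 groups of 5, taken from the labels. Per the submitters' processing notes, CASAVA 1.8.2, Bismark and mm9 were used. The deposited values are, per the file headers, the count of reads over each cytosine (at least 10) and the percent read as C and as T. Libraries were not pooled. Methylated and unmethylated reads were recovered as coverage times percent, rounded.

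Reads were summed over 1 kb windows of at least 3 cytosines. A quasi-binomial logistic model with a term per group was fitted to each window and cytosine of the autosomes. Overdispersion was moderated as in limma (3.58.1) and kept at 1 or above, and groups were compared by a two-sided F test of the deviance with Benjamini-Hochberg adjustment over all windows or all cytosines (Python 3.11.15, numpy 2.4.6). The fit was tested on simulated data. Named windows were the 2 with the smallest p in each direction per comparison, up to 20 nearest 50% among those of 10 to 90%, and per cluster the 2 highest and the 2 with most cytosines, 34 in all, of which the report gives a part. Single cytosines named were those with the smallest p per comparison. The members, gene lists and tests were chosen with earlier results of these data known. Alternatives were a coverage minimum of 20 reads, all 20 libraries required, 2 groups only, limma, flowcell as a factor, other windows, both strands summed, libraries left out and, added after seeing the data, a term per pair of consecutive library numbers. Reads carry no molecular identifiers.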

Additional observations from a re-analysis of the deposited data

Results flagged for a closer look

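In the named windows and the cluster means, each group of 5 libraries was searched for a library far from the other 4 (a gap above Dixon's 95% critical value). Of 144 such searches 12 found one, where chance gives about 1 in 20. Causes were not tested.

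In Hoxd, WT CD34+ library 1 had 69.0% (258 reads) at chr2:74505001-74506000, just before Hoxd13, where the other 4 had 11.7 to 14.4%, and 44.7% (235 reads) at chr2:74567001-74568000, where the others had 79.9 to 87.9%. PML-RARα CD34- library 14 had 92.9% at the latter, from 28 reads, with the others at 59.6 to 68.7%. At chr2:74543001-74544000, the dense window of lowest level, PML-RARα CD34+ library 11 had 1.29% (4255 reads) and the others 0.193 to 0.335%. WT CD34+ library 17 had 4.31% at chr2:74498001-74499000 (others 0 to 1.14%), WT CD34- library 2 had 68.6% at chr2:74559001-74560000 (others 53.8 to 57.0%), and WT CD34- library 18 had 32.4% at chr2:74585001-74586000 (others 23.3 to 25.8%).

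In Hoxc, PML-RARα CD34+ library 11 had 47.9% (140 reads) at chr15:102781001-102782000, where the others had 7.29 to 16.3%, and 0% (1246 reads) at chr15:102802001-102803000, where the others had 2.78 to 3.65%. WT CD34- library 18 had 19.0% at chr15:102793001-102794000 (others 11.4 to 12.3%). At chr15:102871001-102872000, WT CD34- library 2 had 20.7% (others 8.56 to 10.3%) and PML-RARα CD34- library 12 had 24.6% (others 7.06 to 10.2%). Library 11 was found 3 times, libraries 1, 2 and 18 2 times each, and libraries 12, 14 and 17 1 time each. Library 11 had the lowest total coverage of all libraries, 83631324. Libraries 1, 2 and 18 had 94591788, 177853325 and 247608075. A link with coverage was not tested.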

How the results depend on the processing

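The count of called member windows and of called member cytosines was 0 in each of the 5 comparisons under each alternative, 27 to 30 per comparison, including each library left out, except for cytosines of PML-RARα maturation with a replicate block (below). The smallest adjusted p of a member window ranged from 0.238 to 1.00 over alternatives. For cytosines it ranged from 0.0506 to 0.477 between genotypes in CD34- cells and from 0.0331 to 0.590 in WT maturation, where leaving out WT CD34+ library 7 gave the lowest value. In PML-RARα maturation it ranged from 0.0155 to 0.566. The lowest value came with the replicate block at the Hoxd cytosine 74574348, whose difference of -3.96 points was under the 10 points of a call. Between genotypes in CD34- cells, the cytosine 102781292 had the smallest p under all alternatives but 1.

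Of 170 values of the differences in cluster mean, 10 moved by more than the SD between libraries. With all reads pooled, Hoxc had -0.42 points for PML-RARα maturation, and Hoxd had 0.10 and -0.17 points between genotypes in CD34+ and CD34- cells, -0.43 points for PML-RARα maturation and -0.26 points for the interaction. With a coverage minimum of 20 reads, Hoxc had -0.0950 points between genotypes in CD34+ cells and -0.14 for the interaction, and Hoxd had 0.18 points between genotypes in CD34- cells. Within flowcell B, the only one that held all groups needed, Hoxc had -0.31 points for PML-RARα maturation and -0.40 for the interaction. These rest on 3 PML-RARα CD34+ and 2 PML-RARα CD34- libraries and, for the interaction, on 1 WT library of each fraction. Of 524 values of group levels in named windows, 43 moved by more than their SD. Windows of few cytosines rest on as few as 28 reads in a library, and neither reads nor cytosines of one fragment are independent molecules.

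A replicate block, chosen after seeing the data, used the 10 pairs of consecutive library numbers, each a CD34+ and a CD34- library of 1 genotype and of the same # number in the label. Whether they share a mouse is not stated. Over 114462 windows, the deviations of paired libraries from their group means correlated at -0.0330 to 0.152 (median 0.0428), over 0.1 in 3 of 10 pairs, and at -0.130 to 0.118 (median -0.0165) in the 40 other combinations. In 3 of 10 pairs both libraries correlated best with each other. With the block, 0 of 108 windows were called in either maturation comparison or in the interaction, and 0 of 2667 cytosines in WT maturation and the interaction. In PML-RARα maturation 3 of 2667 cytosines were called, where 4601 of 1730534 (0.266%) were called genome-wide, and 34 without the block. They were 102798353 in Hoxc (13.5% ± 12.7 in CD34+ and 0% in CD34- cells, lower in 4 of 5 pairs) and 74560008 and 74579025 in Hoxd (11.1% ± 8.71 and 39.5% ± 18.5, and 8.12% ± 10.8 and 46.9% ± 23.7, each higher in 5 of 5 pairs). Their adjusted p was 0.0479, 0.0461 and 0.0395 with the block and 0.257, 0.418 and 0.409 without it, in the quasi-binomial test. The window chr15:102799001-102800000 was lower in the CD34- library in 10 of 10 pairs. It was picked here for this: of the 106 member windows covered in all pairs, 1 was lower and 0 were higher in 10 of 10. How many windows genome-wide go 1 way in all pairs was not counted, and the 10 of 10 is a description. With the block its adjusted p was 0.648 in WT and 0.322 in PML-RARα maturation in the quasi-binomial test. The block gives no comparison between genotypes, whose libraries are in different pairs.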
